A study of Mus musculus with 25 samples.

Results

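In ChIP-seq of primary myoblasts, most peaks of the chromatin protein Spin1 (spindlin 1) lay on H3K4me3, the trimethyl mark on lysine 4 of histone H3 that it reads. The 1485 regions described here are the exception: they are Spin1 peaks that shared no base pair with any H3K4me3 peak. They made up 8.68% (95% Wilson interval 8.27 to 9.11) of the 17106 Spin1 peaks. The regions were selected on the positions of the called peaks in both lists, so the absence of H3K4me3 and anything that follows from peak calling is a description and not a finding.

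The series held 25 samples, of which 22 were RNA-seq libraries of skeletal muscle (SkM) that were not analysed here and 3 were ChIP-seq libraries of primary myoblasts (PriMBs). PriMBs are proliferating muscle precursor cells, here isolated by preplating from the limb muscle of 10-day-old C57BL/6 N mice and grown without a genetic change or treatment. One library was made with an antibody against Spin1, another with an H3K4me3 antibody, and input chromatin was the control for both. With 1 library for each antibody there were no biological replicates, so every interval below covers counting error over regions only and not the variation between cultures. Each peak carries a MACS score, the negative log10 of its p-value multiplied by 10, so a lower score is a weaker call. Total reads per library are not given with the peak lists, so the depth behind a score, and hence the smallest H3K4me3 signal that could have been called, is unknown.

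The labelled cell type was checked at promoters, taken as the transcription start site (TSS) ±1.0 kb. All 6 myoblast genes examined (Myod1, Myf5, Pax7, Des, Cdh15 and Myog) had both a Spin1 and an H3K4me3 peak. The endothelial gene Pecam1 and the leukocyte gene Ptprc had neither. The endothelial gene Cdh5 had an H3K4me3 peak with a score of 246 and no Spin1 peak, the fibroblast-associated gene Thy1 had an H3K4me3 peak of 2065 and no Spin1 peak, and Pdgfra, a gene of fibro-adipogenic cells, had both (2393 for Spin1). What other cells contributed to the peaks was not tested.

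As background, H3K4me3 marks active promoters, whereas enhancers carry little of it. Enhancers of muscle cells are known for E-boxes, the sites of basic helix-loop-helix (bHLH) factors such as Myod1 and myogenin (Myog), and for the sites of AP-1 (dimers of Fos and Jun proteins), Tead and Runx factors. The E-box CAGCTG is the form preferred by Myod1 and myogenin, CACCTG is bound by E proteins and by Snail and ZEB repressors, CATCTG by Twist and Tal1, and CACGTG by Myc.

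The sequences below show what such regions look like. Each is 300 bases or fewer of the plus strand of the mouse genome GRCm38 (mm10), written 5′ to 3′. Capitals mark every E-box (CANNTG), AP-1 site (TGANTCA in which N stands for cytosine or guanine) and Tead site (ACATTCC) and every AGGCCT, on either strand. The Mir206 region (chr1:20678927-20679226) is shown because it was the highest-scoring region at the start site of a muscle miRNA gene. The Phactr1 region (chr13:43032515-43032814) is shown because it held AGGCCT, an AP-1 site and CAGCTG within a short stretch. The Myod1 region (chr7:46340820-46341119) lies 35.5 kb upstream of the gene for the master regulator of the muscle lineage. Its score was 228, and it is not the strongest region near Myod1.
Mir206: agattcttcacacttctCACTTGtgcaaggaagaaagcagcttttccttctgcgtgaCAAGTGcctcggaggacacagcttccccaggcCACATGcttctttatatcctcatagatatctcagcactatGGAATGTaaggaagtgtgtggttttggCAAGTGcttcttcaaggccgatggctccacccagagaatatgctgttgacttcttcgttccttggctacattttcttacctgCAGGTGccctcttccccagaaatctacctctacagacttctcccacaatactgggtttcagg
Phactr1: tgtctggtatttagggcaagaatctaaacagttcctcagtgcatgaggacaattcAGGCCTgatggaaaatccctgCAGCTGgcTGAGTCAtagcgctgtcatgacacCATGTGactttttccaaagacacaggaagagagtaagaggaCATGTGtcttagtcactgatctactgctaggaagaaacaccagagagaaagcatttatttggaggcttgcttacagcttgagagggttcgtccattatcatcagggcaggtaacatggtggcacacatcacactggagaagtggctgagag
Myod1: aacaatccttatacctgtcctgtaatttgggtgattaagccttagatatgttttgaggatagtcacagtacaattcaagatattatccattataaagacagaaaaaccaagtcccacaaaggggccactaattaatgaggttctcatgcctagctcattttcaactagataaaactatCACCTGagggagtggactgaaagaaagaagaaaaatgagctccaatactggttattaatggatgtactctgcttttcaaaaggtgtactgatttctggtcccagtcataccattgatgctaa

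The Mir206 region held 5 E-boxes, none of them CAGCTG, together with 1 Tead site. That Tead match is part of the miRNA itself. The Spin1 peak covered the whole hairpin, and both mature strands of miR-206, a miRNA made in skeletal muscle, can be read in it. RefSeq places mmu-miR-206-5p at chr1:20679017-20679039 and mmu-miR-206-3p at chr1:20679055-20679076, both on the plus strand. Their seeds (bases 2 to 8) are in capitals.
mmu-miR-206-5p: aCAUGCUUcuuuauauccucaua
mmu-miR-206-3p: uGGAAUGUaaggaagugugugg

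Most regions were weak and narrow. The lowest score was 50.69, the median 118 (quartiles 105 and 152) and the highest 3100, against a median of 1239 for all Spin1 peaks. Their median width was 693 bp, against 1739 bp for all Spin1 peaks. Together they covered 1.19 Mb, or 3.61% of the base pairs under Spin1 peaks. Of the 1485 regions, 195 (13.1%, 11.5 to 14.9) scored 200 or more and 1290 scored less. The stronger regions had a median score of 301 and a median width of 1108 bp, and the weaker ones 114 and 687 bp. The values nearest to the division were 200.29 and 199.92.

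The share of Spin1 peaks without H3K4me3 fell at every step of the score. It was 60.4% (55 of 91) below a score of 75, 41.0% (107 of 261) from 75 to 100, 20.5% (192 of 937) from 150 to 200, 6.19% (69 of 1114) from 300 to 500 and 0.0766% (7 of 9143) from 1000 upwards. Regions without H3K4me3 were therefore a majority of the faintest calls and nearly missing from the strongest. This gradient is part of what the selection used and carries no test.

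**Figure D1:**
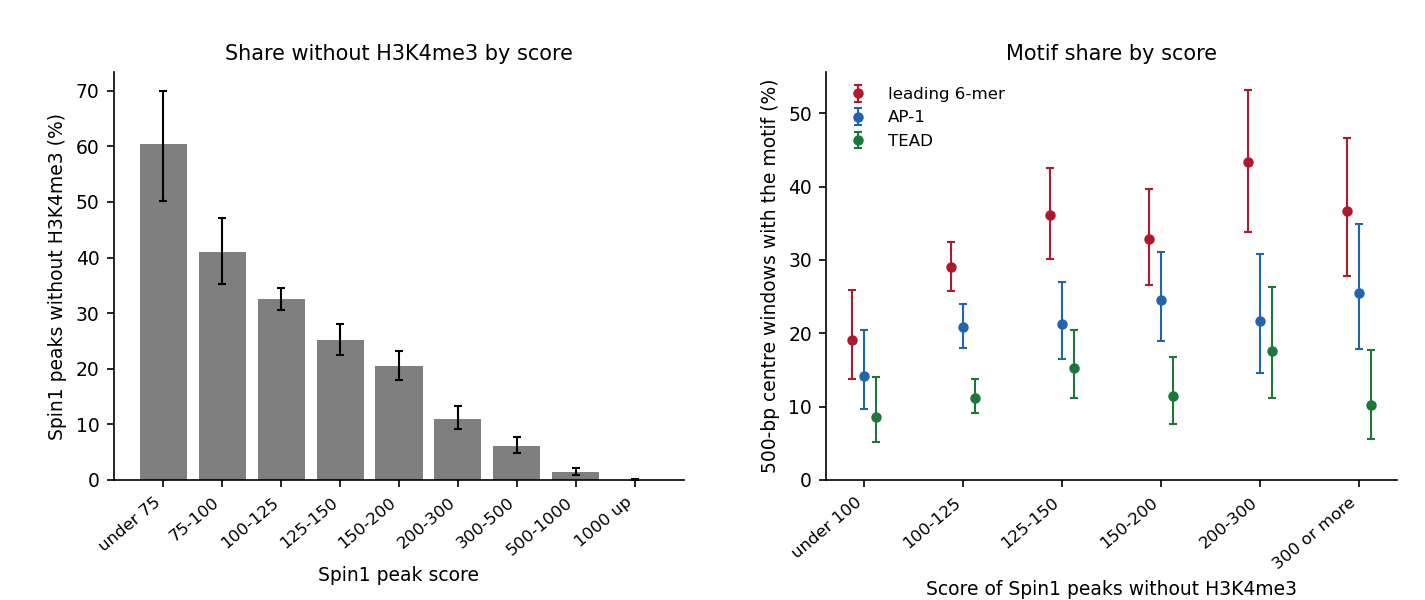
Left, share (%) of Spin1 peaks that overlap no H3K4me3 peak in each class of Spin1 score, going down from 60.4% in the lowest class to 0.0766% in the highest. Right, share (%) of the regions with AGGCCT (leading 6-mer), an AP-1 site or a Tead site in the 500 bp around the centre by class of score, with AGGCCT at 19.1% below 100 and 43.3% from 200 to 300; error bars in both are 95% Wilson intervals.

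Many of the regions lay near the mark without touching it. The gap to the nearest H3K4me3 peak had a median of 9035 bp, and 267 regions (17.98%, 16.1 to 20.01) had an H3K4me3 peak within 1000 bp and 767 (51.6%, 49.1 to 54.2) within 10 kb. The median gap was 12597 bp for regions of 200 or more and 8748 bp for those under 200. At the edge of the definition, 39 regions were less than 100 bp from an H3K4me3 peak, the closest 1 bp away, while 52 other Spin1 peaks overlapped one by less than 100 bp, the smallest overlap being 6 bp. A shift of peak borders by this amount would move these regions in or out of the set.

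The regions sat in introns and between genes and rarely at promoters. By the position of the peak centre, 705 (47.5%, 44.9 to 50.02) were intronic, 711 (47.9%, 45.3 to 50.4) intergenic, 44 (2.96%) exonic and 25 (1.68%) within TSS±1.0 kb. Of all Spin1 peaks, by contrast, 63.6% were within TSS±1.0 kb, 19.1% intronic and 14.6% intergenic. The median distance from a region to any TSS was 27826 bp, and 75.5% (73.2 to 77.6) were over 10 kb from the nearest TSS, against 19.1% of all Spin1 peaks.

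Regions of 200 or more were intergenic more often than weaker ones. The shares were 55.9% (109 of 195) and 46.7% (602 of 1290), a difference of 9.23 percentage points (95% Newcombe interval 1.70 to 16.54). The intronic share was 10.4 points lower (interval of the difference -17.5 to -2.88). Without windows of repeated, mitochondrial or centromeric sequence, which are described further on, the intergenic difference was 6.96 points and its interval held 0 (-1.38 to 15.19). For a comparison within 1 class of TSS distance, the 1121 regions over 10 kb from a TSS were set beside 2153 other Spin1 peaks. These also lay over 10 kb from a TSS but did overlap H3K4me3, and are called distal H3K4me3-positive peaks from here on. The groups were not matched on score, width or base composition. Median scores were 118 in the regions and 191 in the positive peaks, and median widths 696 and 904 bp. The regions without the mark were intergenic in 51.4% and the positive peaks in 56.4%, a difference of -5.00 points (-8.59 to -1.41), which without those windows was -3.32 points with an interval that held 0 (-7.19 to 0.565).

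The 1121 distal regions were poorer in GC and CpG than distal H3K4me3-positive peaks, with ranges that overlapped. Their median GC content was 46.6% and their median ratio of observed to expected CpG was 0.201, where 1 would mean no CpG depletion. Distal H3K4me3-positive peaks had 51.0% and 0.354, with quartiles of the CpG ratio at 0.235 and 0.541 against 0.143 and 0.277 in the distal regions, and the positive peaks at TSS±1.0 kb (n = 10846) had 53.5% and 0.615. All 1485 regions had 47.0% and 0.20, and those of 200 or more and under 200 had median CpG ratios of 0.207 and 0.199. Over 50% of the sequence was soft-masked as repeats in 69 distal regions (6.16%, 4.89 to 7.72), against 3.76% (3.04 to 4.65) of distal H3K4me3-positive peaks.

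The regions were spread over all 21 chromosomes. The share of an autosome's Spin1 peaks that lacked H3K4me3 ran from 6.51% (5.31 to 7.95) on chromosome 11 to 11.5% (9.68 to 13.6) on chromosome 1. The X chromosome had 8 of 411 (1.95%), a difference from the 8.79% of autosomes of -6.85 points (-7.90 to -4.95). Among Spin1 peaks over 10 kb from a TSS the X chromosome had 7 of 29 (24.1%) and the autosomes 34.2%, a difference of -10.03 points with an interval that held 0 (-22.1 to 8.01). The Y chromosome had 11 of 21 (52.4%, 32.4 to 71.7).

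The motif content was read in the 500 bp around each peak centre and compared with 500-bp windows 2.0 kb to either side of the same peaks. Both strands were searched, a window counted if it held at least 1 match, and the interval of the difference spans the comparisons with both flanks. Peak summits are not in the files, so the centre is the midpoint of the called interval. Of the 21 motifs fixed, 3 were more frequent at the centre with an interval above 0 (AP-1, CAGCTG and Tead), 3 were less frequent (E-boxes of any kind, CACCTG and CA repeats), and the intervals of the other 15 held 0. The intervals are not adjusted for the number of motifs. CAGCTG is one of the sequences that CANNTG covers, and the other E-box forms named here are as well.

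AP-1 sites showed the largest difference among these motifs. They were in 21.01% of the regions (312 of 1485, 19.0 to 23.2) and in 10.4% of the flanks, a difference of 10.6 points (7.97 to 13.3). All 17106 Spin1 peaks held one in 8.01% of windows, and windows placed every 10 kb over the genome (n = 264753) in 7.63%. H3K4me3 peaks over 10 kb from a TSS that overlapped no Spin1 peak (n = 9229) held one in 14.2%. The difference was 14.6 points (6.13 to 22.4) in regions of 200 or more and 10.0 points (7.04 to 13.0) in weaker ones, and between these classes the centre shares of 23.6% and 20.6% differed by 2.97 points with an interval that held 0 (-2.91 to 9.74). Distal H3K4me3-positive peaks also held AP-1 sites more often at the centre, in 15.98% against 9.27% of their flanks, 6.71 points more (4.42 to 8.98). Their centre share was 5.88 points (3.05 to 8.80) below the 21.9% of the distal regions without the mark. In a 200-bp window this difference was 1.29 points with an interval that held 0 (-0.564 to 3.30). Below a score of 100 the share was 14.2% (9.65 to 20.4), and at 300 or more 25.5% (17.9 to 34.95).

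Tead sites followed the same pattern at a lower level. They were in 11.9% of the regions (177, 10.4 to 13.7) against 6.70% of flanks, a difference of 5.22 points (2.51 to 7.81), with 5.72% in all Spin1 peaks and 6.81% in the genome windows. Distal H3K4me3-positive peaks had 7.94%, which was 4.28 points (2.11 to 6.59) below the 12.2% of distal regions without the mark, and their own centre minus flank difference of 1.42 points had an interval that held 0. In a 200-bp window the differences were 1.45 points from the flanks and 1.13 from the positive peaks, and both intervals held 0. By distance to H3K4me3 the Tead share was 10.3% (7.62 to 13.8) within 2 kb of the mark and 17.0% (12.7 to 22.5) beyond 50 kb. AP-1 and Tead sites shared a window in 41 regions (2.76%), and the product of their shares was 2.50%.

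E-boxes as a class did not mark the centres. A 500-bp window of almost any origin holds a CANNTG: it was found in 91.9% of the regions, 94.1% of flanks and 93.0% of genome windows, with a centre minus flank difference of -2.19 points (-4.24 to -0.0887). All Spin1 peaks had 83.3%. The forms of the E-box differed from each other. CAGCTG was in 30.5% of centres and 23.9% of flanks, 6.63 points more (2.61 to 10.6), against 25.9% in all Spin1 peaks and 16.9% in genome windows, and in a 200-bp window the difference was 2.49 points (-0.600 to 5.49). Distal H3K4me3 peaks without Spin1 (n = 9229) held CAGCTG in 37.6%, more often than the regions did. CACCTG went the other way, with 24.3% of centres and 33.1% of flanks, a difference of -8.82 points (-12.0 to -5.58). All Spin1 peaks had 30.6% and genome windows 26.5%. Distal H3K4me3-positive peaks had a similar dip, with 25.2% of centres and 32.5% of flanks, -7.32 points (-9.98 to -4.60). The 22.5% of distal regions without the mark differed from them by -2.69 points with an interval that held 0 (-5.70 to 0.408). CATCTG was in 37.4% and 34.4%, 2.93 points with an interval that held 0 (-0.773 to 6.70), against 23.9% in all Spin1 peaks and 33.9% in genome windows.

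CAGCTG was less frequent in the 1121 regions over 10 kb from a TSS than in distal H3K4me3-positive peaks. The shares were 28.8% and 34.7%, a difference of -5.93 points (-9.21 to -2.56). In windows under 20% soft-masked the difference was -3.84 points with an interval that held 0 (-7.80 to 0.228). Among all regions CAGCTG was in 35.4% (30.7 to 40.3) of regions within 2 kb of an H3K4me3 peak and in 22.9% (17.8 to 28.8) of those over 50 kb from one, so the gradient ran opposite to that of Tead. These classes are descriptions of the same regions and were not tested against each other.

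Runx sites (TGTGGT) and GC boxes of Sp and Klf factors (GGGCGG) differed between the regions and distal H3K4me3-positive peaks. Runx sites were in 36.9% of regions and 35.1% of their flanks, 1.78 points with an interval that held 0 (-2.32 to 5.87), and in 22.4% of all Spin1 peaks and 30.8% of genome windows. In distal H3K4me3-positive peaks the Runx share was 26.6% at the centre and 34.8% in flanks, and the distal regions without the mark exceeded it by 10.3 points (6.91 to 13.7). GC boxes were in 7.61% of regions and 8.52% of flanks, and in 49.2% of all Spin1 peaks and 4.55% of genome windows. In distal H3K4me3-positive peaks they were in 32.4%, which was 25.3 points (22.8 to 27.7 in size) above the distal regions without the mark. The groups differed in GC and CpG content, as given above, and GGGCGG itself holds a CpG. How much of the Runx and GC box differences follows from base composition was not tested. The centre minus flank intervals held 0 for 2 further motifs of muscle genes: Mef2 sites were in 6.20% of centres and 7.85% of flanks, and CArG boxes of serum response factor in 2.96% and 3.13%.

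**Figure D2:**
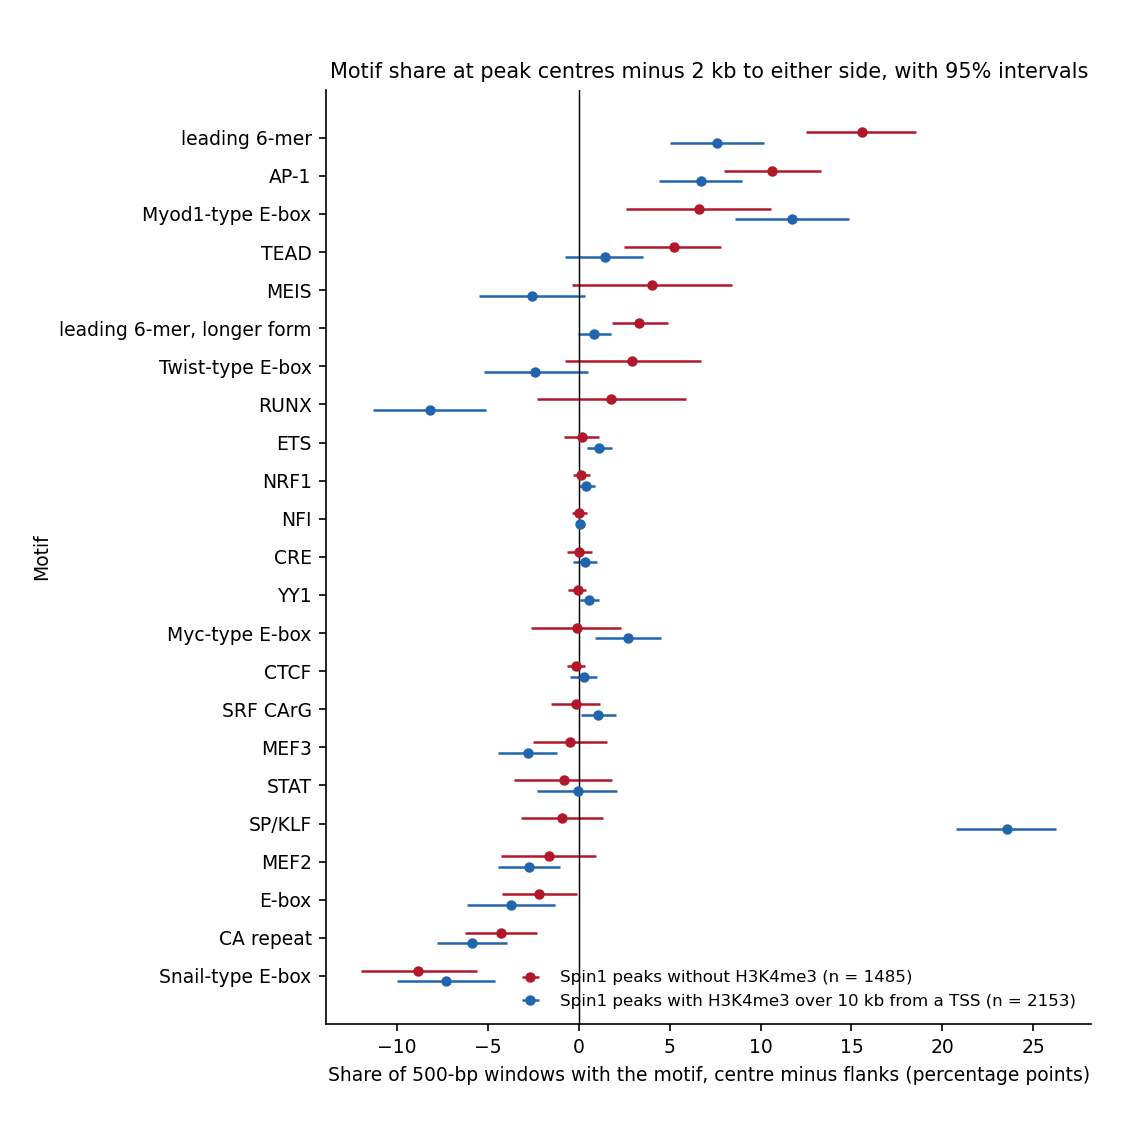
Share of 500-bp windows with each motif at the peak centre minus the share 2.0 kb to either side, in percentage points with 95% intervals, for the 1485 regions without H3K4me3 and the 2153 distal H3K4me3-positive peaks. The leading 6-mer is AGGCCT and its longer form AGGCCTAG, the Myod1-type E-box is CAGCTG and the Snail-type E-box CACCTG. AP-1 and AGGCCT lie furthest to the right for the regions, and SP/KLF for the positive peaks.

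Beyond the fixed motifs, words with a GGCC core were enriched at the centres. All 2080 6-mers (a sequence and its reverse complement counted as 1) were ranked by the ratio of centre to flank share, with 0.5 percentage points added to each. The palindrome AGGCCT was at the top of this rank with a ratio of 1.98, which was also the ratio of the fixed AP-1 motif. It was in 30.98% of centres (460, 28.7 to 33.4) and 15.4% of flanks, and it was measured further only after this rank had been seen. Another 4 of the leading words shared its GGCC core: GGCCTA was in 24.7% and 13.5%, AAGGCC in 41.5% and 24.8%, CAGGCC in 45.1% and 27.9%, and AGGCCC in 37.6% and 23.2%. By the difference in place of the ratio CAGGCC was at the top and AGGCCT ranked 3. CACCTG ranked 2041 by the ratio. The centre minus flank difference of AGGCCT was 15.6 points (12.48 to 18.5). All Spin1 peaks held it in 21.5%, genome windows in 12.0%, and distal H3K4me3 peaks without Spin1 (n = 9229) in 14.7%.

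AGGCCT was more frequent in the stronger regions. It was in 19.1% (13.8 to 25.9) of regions under 100, 32.8% (26.6 to 39.7) from 150 to 200 and 43.3% (33.9 to 53.2) from 200 to 300, and in 36.7% (27.9 to 46.6) from 300. Regions of 200 or more had it in 78 of 195 and weaker ones in 382 of 1290 (29.6%), a difference of 10.4 points (3.29 to 17.8). With the division at 300 the difference was 6.17 points with an interval that held 0 (-3.05 to 16.3). By the gap to H3K4me3 it hardly varied, from 29.4% at 2 to 10 kb to 32.7% at 10 to 50 kb. Distal H3K4me3-positive peaks held it in 24.5% against 31.04% of distal regions without the mark, a difference of 6.52 points (3.29 to 9.81), and their centres exceeded their own flanks by 7.62 points. Because the word was picked from the centre windows of the regions, its centre minus flank values are a description. The same holds for its difference from distal H3K4me3-positive peaks.

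The longer word AGGCCTAG is the core of the sites known for the zinc-finger factors Zfx and Zfp711, and is shown for that reason. Among 8-mers it ranked 31 by the ratio and 15 by the difference, and AAGGCCTA ranked 4 by the ratio, while AGGCCCAG and AGGCCTTG led by the difference. AGGCCTAG was in 4.98% of regions and 1.65% of flanks, 3.33 points more (1.80 to 4.89), and in 1.21% of genome windows. All Spin1 peaks held it in 2.17%. Distal H3K4me3-positive peaks held it in 2.37% against 1.51% of their flanks, a difference whose interval held 0 (-0.0553 to 1.76). It contains AGGCCT, which was picked from these windows, so its values are a description. Binding of Zfx or Zfp711 was not tested. The 5 highest-scoring regions that held it and were less than 50% soft-masked are shown with the word in capitals, chosen after their values were seen. They lie nearest to Snx29 (chr16:11456523-11456582, score 582), Prss27 (chr17:24035502-24035561, 486), Slc44a3 (chr3:121577525-121577584, 445), Asb8 (chr15:98156031-98156090, 426) and Calcoco1 (chr15:102802143-102802202, 327).
Snx29: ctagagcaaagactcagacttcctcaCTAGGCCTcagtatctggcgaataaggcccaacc
Prss27: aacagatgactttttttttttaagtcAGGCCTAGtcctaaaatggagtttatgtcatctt
Slc44a3: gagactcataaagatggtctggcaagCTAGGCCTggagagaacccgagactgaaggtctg
Asb8: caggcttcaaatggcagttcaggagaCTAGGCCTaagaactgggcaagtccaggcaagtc
Calcoco1: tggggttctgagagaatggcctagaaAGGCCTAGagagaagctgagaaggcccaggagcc

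The highest-scoring regions with an AP-1 site, chosen in the same way, are shown with that site in capitals. They lie nearest to Phactr1 (chr13:43032573-43032632, score 862), Eps8l3 (chr3:107823399-107823458, 801), Ninj2 (chr6:120189785-120189844, 628), Snx29 (chr16:11456455-11456514, 582) and Neurl1a (chr19:47219825-47219884, 576). The Snx29 region thus held both words, and the Eps8l3 region held 3 AP-1 sites in a short repeat.
Phactr1: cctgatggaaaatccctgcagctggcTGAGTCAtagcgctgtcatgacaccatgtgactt
Eps8l3: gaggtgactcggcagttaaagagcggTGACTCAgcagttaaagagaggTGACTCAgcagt
Ninj2: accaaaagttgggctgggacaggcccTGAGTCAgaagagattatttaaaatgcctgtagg
Snx29: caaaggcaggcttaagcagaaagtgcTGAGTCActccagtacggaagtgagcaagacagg
Neurl1a: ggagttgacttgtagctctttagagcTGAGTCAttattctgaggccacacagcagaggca

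Per kilobase, these words were denser around the centre. Within 200 bp of it AP-1 sites occurred 0.513 times per kb, against 0.228 beyond 1500 bp. The AP-1 rise was a broad plateau and not a point at the centre. Its densest 100-bp bin lay at -350 bp (0.640 per kb), against 0.505 in the bins at -50 and 50 bp. AGGCCT occurred 0.773 times per kb against 0.346, CAGCTG 0.80 against 0.558 and Tead sites 0.241 against 0.151, whereas CACCTG had 0.594 near the centre and 0.811 beyond, and Runx sites 0.973 and 0.940. In regions of 200 or more the AGGCCT density within 100 bp of the centre was 1.23 per kb. At least 1 of AP-1, Tead and CAGCTG was found in 763 regions (51.4%, 48.8 to 53.9) against 36.3% of flanks, and with AGGCCT added in 966 (65.1%), which leaves the remainder without any of the 4. AP-1, Tead and CAGCTG were the fixed motifs already found above the flanks in these windows, and AGGCCT was picked from them. Both pooled shares are therefore descriptions and no further evidence of an excess.

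**Figure D3:**
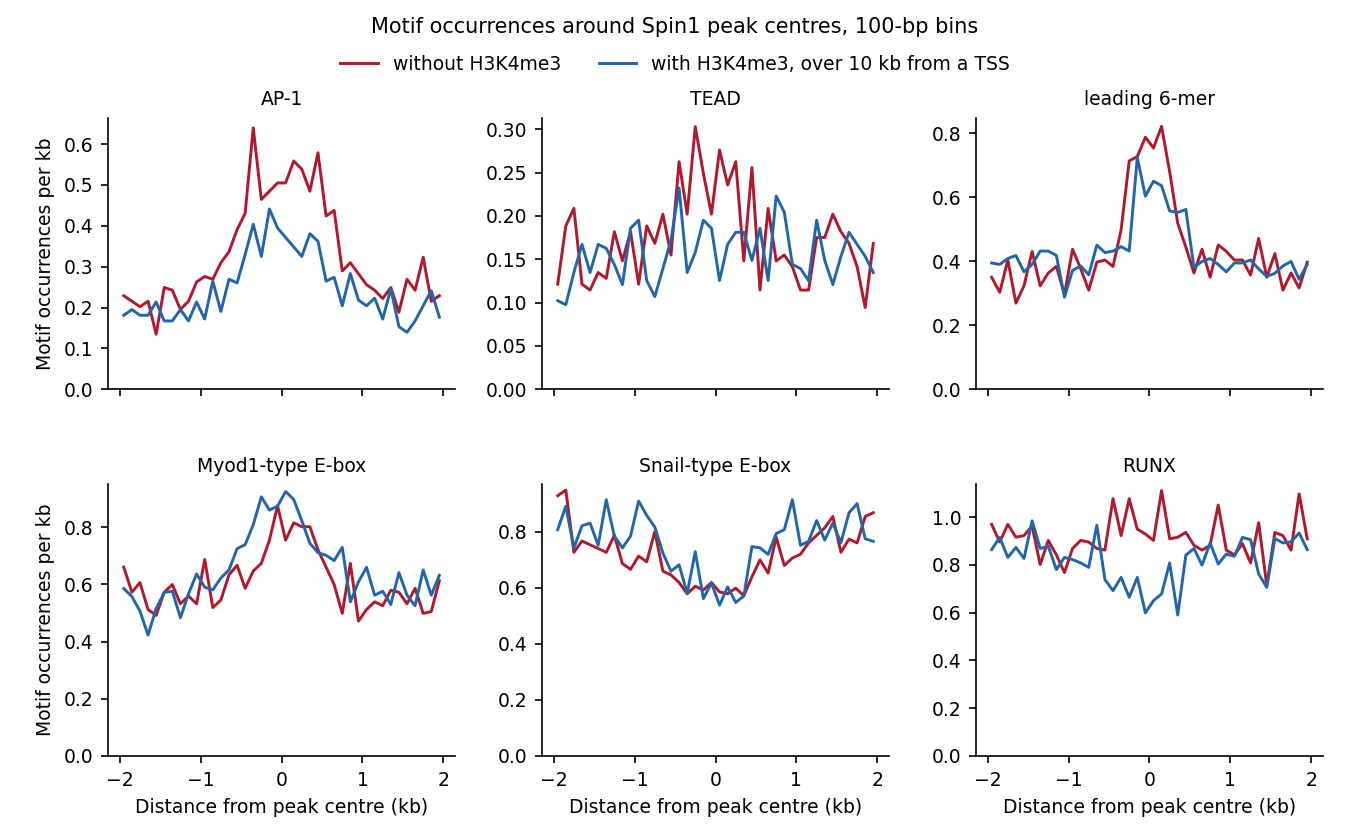
Occurrences per kb of 6 motifs by distance from the peak centre, in the regions without H3K4me3 and in distal H3K4me3-positive peaks. AGGCCT (leading 6-mer) and CAGCTG (Myod1-type E-box) rise at the centre of the regions, and CACCTG (Snail-type E-box) dips. AP-1 is raised over a broad plateau, with 0.513 per kb within 200 bp and its densest bin at -350 bp (0.640 per kb).

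The strongest regions differed from the rest in the kind of sequence they held. To see how often the sequence recurs, each 31-base word of the 500-bp centre window was counted over the 21 chromosomes, and the words were looked up in the mitochondrial genome. In 1012 regions (68.1%, 65.7 to 70.5) no word occurred more than once. At least 10% of the words were repeated in 188 (12.7%, 11.1 to 14.4) and at least 50% in 40 (2.69%). Of the 29 regions scoring 500 or more, 12 (41.4%, 25.5 to 59.3) had at least 10% repeated words, against 151 of 1290 (11.7%, 10.1 to 13.6) under 200. Of the 1121 distal regions, 12.9% (11.1 to 15.03) had at least 10% repeated words and 2.85% (2.03 to 4.002) at least 50%. Distal H3K4me3-positive peaks had 14.6% (13.2 to 16.1) and 9.61% (8.44 to 10.9).

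Words of the mitochondrial genome were found in 11 regions (0.741%, 0.414 to 1.32). None of the 15621 Spin1 peaks with H3K4me3 had any, which allows a share of up to 0.0246%. Of the 11, 9 scored 200 or more, and all 11 lay at least 15423 bp from an H3K4me3 peak. The region nearest to Col19a1, a collagen gene, scored 3100 and had every word of its centre window in the mitochondrial genome. The region nearest to Gad2, which lies in an intron of Myo3a, scored 749.96 with 47.0%. Those nearest to G6pd2 (score 643) and Galc (226) held 37.02% and 64.7%, and were named after their values were seen. Whether reads from mitochondrial DNA made these peaks was not tested.

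A box of the centromere protein CENP-B was found in the centre window of 2 regions, nearest to Chl1 (score 1464) and Dpy19l1 (926). That was 0.135% of the regions (0.0369 to 0.490), no more than the 0.154% (24 of 15621) of Spin1 peaks with H3K4me3. Distal H3K4me3-positive peaks had it in 2 of 2153. CENP-B binds this box in the minor satellite DNA of centromeres, and the regions here lay in an intron of Chl1 and upstream of Dpy19l1. The boxes are in capitals at chr6:103649143-103649202 and chr9:24542058-24542117, and the 2 sequences share long stretches in opposite orientation.
Chl1: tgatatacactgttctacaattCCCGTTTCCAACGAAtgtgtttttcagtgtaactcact
Dpy19l1: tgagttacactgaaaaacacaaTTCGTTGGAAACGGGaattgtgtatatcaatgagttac

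Without the windows that had at least 10% repeated words, any mitochondrial word or a CENP-B box, 1292 regions were left. Of these, 155 scored 200 or more, 15 scored 500 or more and 1 scored over 1000. The last lies in an intron of Cdk5rap2, a centrosome gene, with a score of 1951 and no repeated word. The next were the region nearest to Smad6, an inhibitor of BMP signalling (980.3), the intronic Phactr1 region (862) and the Eps8l3 region (801). After them came the strongest region near Myod1 (699.7), 37.8 kb upstream of it, which is not the one printed above. In these 1292 regions the centre minus flank difference of AP-1 was 11.1 points (8.12 to 14.02), a check added after the sequences of the strongest regions had been seen. That of AGGCCT was 16.3 points (12.7 to 19.6). It is a description only, because the word was picked from windows that include these.

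**Figure D4:**
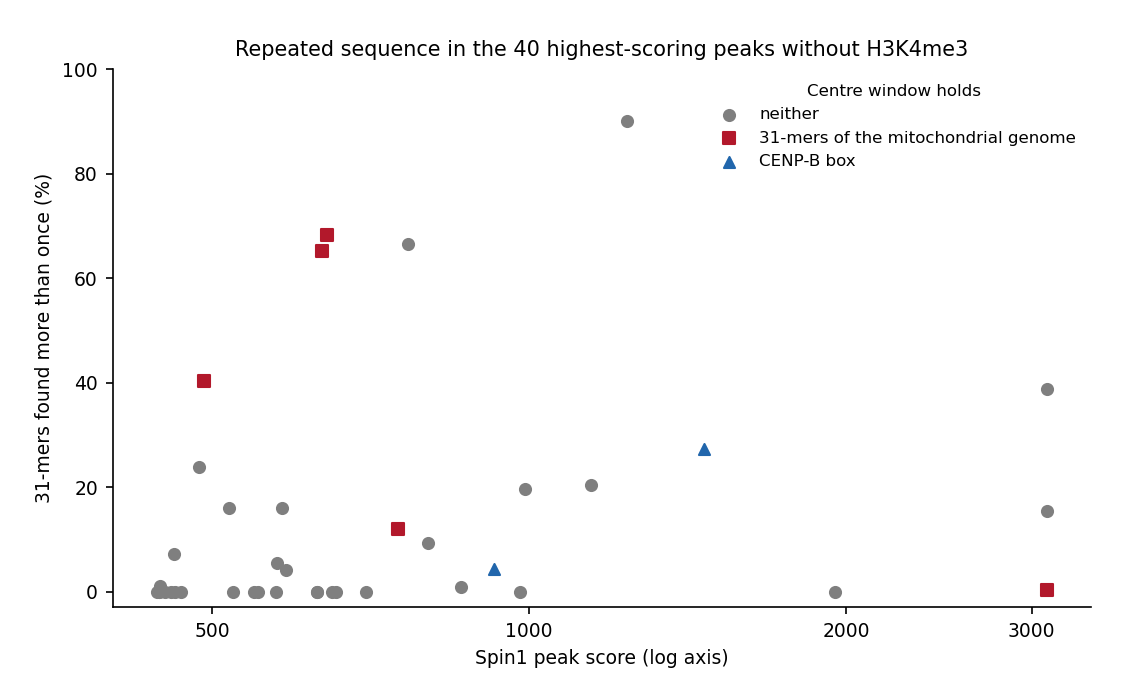
Share (%) of 31-base words of the centre window found more than once in the genome against the Spin1 score (log axis) for the 40 highest-scoring regions, each a point, with windows holding mitochondrial words or a CENP-B box marked. The Cdk5rap2 region (1951, 0%) lies alone on the baseline among scores over 1000 apart from the mitochondrial Col19a1 region at 3100.

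Most of the other regions among the 15 highest scores held repeated sequence. The regions nearest to Gm2237 and Rpusd4 scored 3100, with 38.7% and 15.3% repeated words. The region nearest to Lrrc4c scored 1237 with 90.0% repeated words, and the one nearest to Zfp825 scored 767 with 66.6%. The region nearest to Fam172a scored 1144 with 20.4% and the one nearest to Pak3, a kinase gene on the X chromosome, 991 with 19.6%. Of the 15 windows, 8 thus had at least 10% repeated words, and those of Cdk5rap2, Smad6 and Myod1 had none.

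Some of the regions lay close together. With regions linked when no more than 25 kb apart, 1150 stood alone, 116 pairs formed, and 30 clusters of 3 or more held 103 regions. Without the same count for other Spin1 peaks, these numbers do not say whether the regions cluster more than other peaks. Among them were clusters at the muscle regulators Myod1 and Myog and at Jun. Myod1 had a cluster of 4 regions, with scores from 88.21 to 699.73, located upstream of its TSS by 61.0 kb (score 197), 55.5 kb (88.2), 37.8 kb (699.7) and 35.5 kb (228). Myog, which acts after Myod1 in differentiation, had 3 regions in its cluster, at 14.2 kb (144) and 3.84 kb (147) upstream and 13.0 kb downstream (119), and a further one at 45.1 kb upstream (116). Jun, which encodes an AP-1 subunit, had 3 upstream, at 43.2 kb (115), 48.9 kb (107.7) and 55.6 kb (199.92). Each of these loci had Spin1 peaks with H3K4me3 as well: 7 within 100 kb of Myod1, 10 of Myog and 3 of Jun.

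Clusters also lay at genes of matrix and cytoskeleton. Col5a1, a fibrillar collagen gene, had 4 upstream at 84.0, 82.2, 73.5 and 41.3 kb, with scores from 111 to 205, in a cluster of 5 shared with Rxra. Myh9, the gene of a non-muscle myosin heavy chain, had 3 upstream at 21.1 kb (177), 45.4 kb (101) and 50.1 kb (342). Further clusters included those nearest to Dapk1 (5 regions) and to Ier5 and Mbp (4 each). Clusters of 3 included those nearest to Gadd45g, Runx2, Slc6a6, Nfe2l2, Loxl1, Msi2, Ddc, Il34, and, shared with Lactb, the tropomyosin gene Tpm1. Not every cluster is named, and whether any kind of gene was over-represented among them was not tested. Some were far from the TSS of the named gene. The Dapk1 regions lay 148 to 192 kb from it and the Runx2 regions 231 to 236 kb. All 6 regions nearest to Gadd45g were 116 to 282 kb away. The cluster with the most regions was 6 on the Y chromosome near Gm3376, where repeats covered a median of 93.2% of the sequence.

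**Figure D5:**
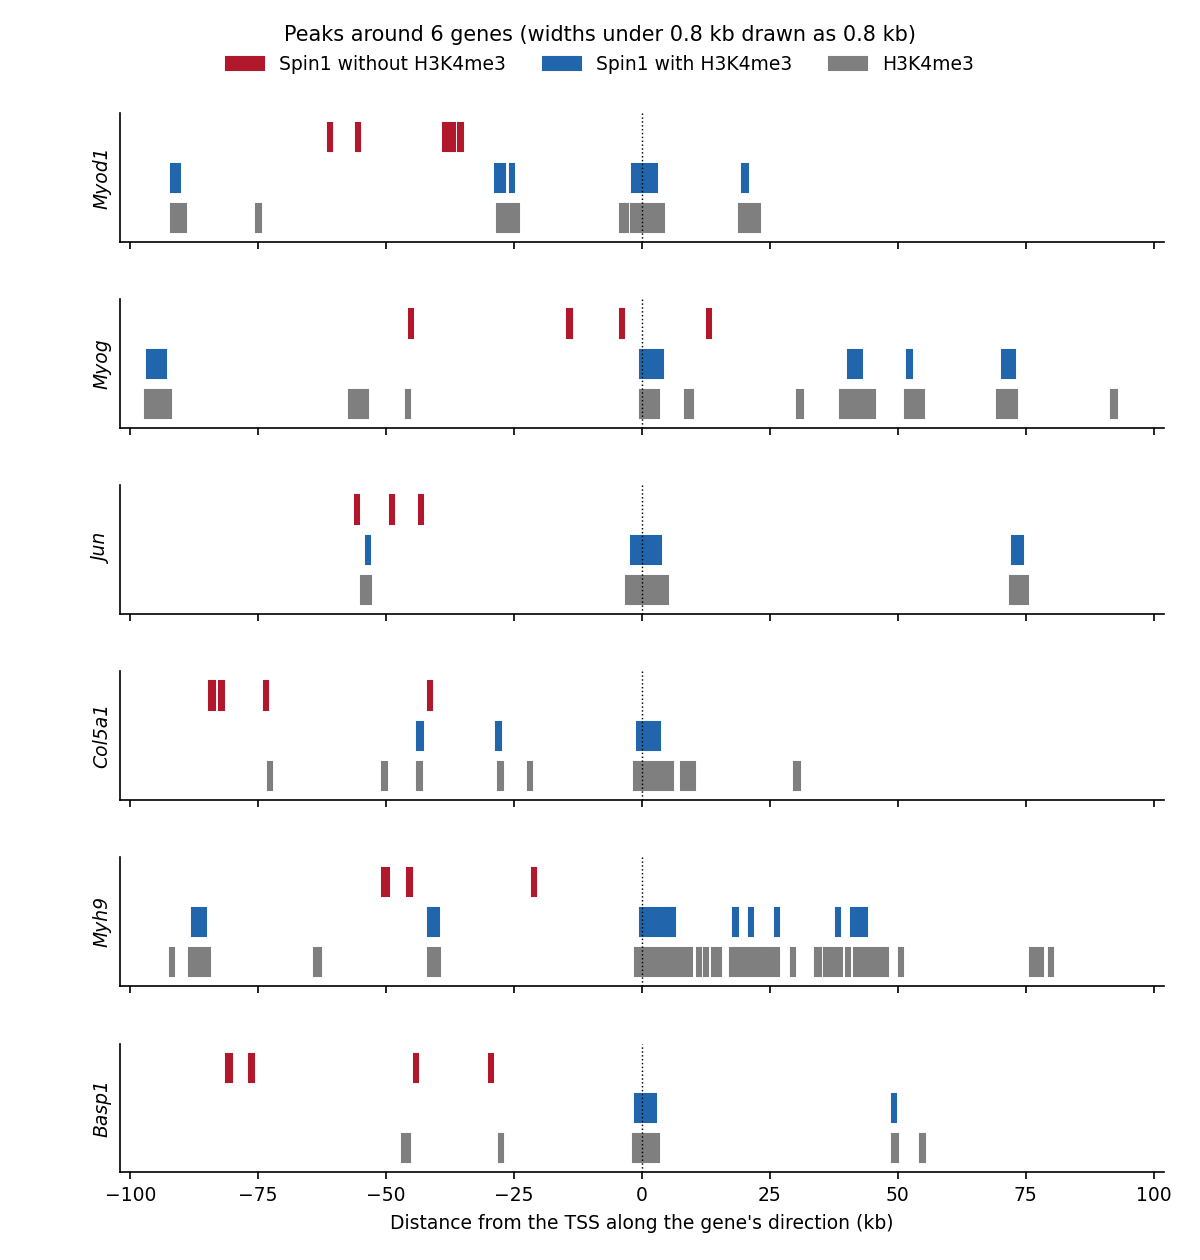
Spin1 peaks without and with H3K4me3 and all H3K4me3 peaks by distance from the TSS (kb, upstream to the left) at 6 genes, as blocks of the peak's width with narrow peaks widened to stay visible. At Myod1 the 4 regions without H3K4me3 lie 35.5 to 61.0 kb upstream, away from the peaks at the promoter.

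At TSS±1.0 kb there were 28 regions, at the start sites of 27 genes (14 protein-coding, 10 lncRNA and 3 miRNA). For 17 of the 27 no H3K4me3 peak touched TSS±1.0 kb at all. The highest of the 28 scores was 374, at the lncRNA 4930447K03Rik, followed by Mir206 with 303, where the nearest H3K4me3 peak was 2789 bp away. Mir133c, another member of a muscle miRNA family, had a region of 133 with 4 E-boxes, in an intron of Med27. Among protein-coding genes, Galntl5 had a score of 236 and the calcium-binding protein genes S100a2 and S100a3 shared a region of 232. Soat2, which encodes a cholesterol esterifying enzyme, had 184, Cxxc5 163, Yae1d1 164, Ptpre, a tyrosine phosphatase gene, 134, and Pde2a, a phosphodiesterase gene, 131.

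The nearest protein-coding genes numbered 1185. Of them, 968 were nearest to 1 region, 163 to 2 and 54 to 3 or more. Besides the clustered genes, those with 3 or more included Atf7ip (6 regions, up to 435), Basp1 (4, up to 433), Soat1 (3, up to 446), Zbtb38 (4, up to 553), Cdkn2b, a cell cycle inhibitor (3, up to 389.74), Ubash3b (3, up to 351), Adam12, a metalloprotease gene (3, up to 325), Myc (4, up to 239), Runx1 (5, up to 124) and the laminin gene Lamc1 (3, up to 179). At Basp1 the 4 regions lay 29.5 to 80.7 kb upstream.

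A region within 100 kb of the TSS was found for 13.3% of all 21000 protein-coding genes, and one of 200 or more for 1.83%. Read against this background, genes of extracellular matrix and adhesion had 7 of 20 (18.1 to 56.7%): Col1a1, Col1a2, Col4a1, Col4a2, Col5a1, Col5a2 and Lamc1, with Col4a1 and Col4a2 sharing 1 region. Cytoskeletal genes had 6 of 20 (Actb, Actg1, Myh9, Vim, Pdlim5 and Cald1). AP-1 and Hippo pathway genes had 6 of 20 (Fos, Jun, Jund, Amotl2, Ccn1 and Tead3). The lists are small, and genes that lie side by side count the same region, so no test was made of any list.

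Genes of muscle were also among those near the regions. Of 15 myogenic bHLH factors and partners, 3 had a region (Myod1, Myog and Id1, an inhibitor of bHLH factors), 2 of them of 200 or more. Of 30 sarcomere genes, 8 had one (Acta1, Tpm1, Tnnt2, Tnnt3, Tnni1, Tnni2, Mybpc1 and Mybph), none of 200 or more, which is 26.7% (14.2 to 44.4) with 13 distinct regions, and neighbours such as Tnnt2 and Tnni1 counted the same region. Other muscle transcription factors had 4 of 21 (Eya2, Tead4, Nfix and Runx1, which had one 2312 bp from its TSS). Genes of the neuromuscular junction and calcium handling had 4 of 20 (Chrne, Dok7, Casq2 and Cacna1s), and those of fusion and the satellite cell surface 4 of 19 (Itga7, Met, Sdc3 and Megf10, the last with a score of 441).

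Lists from other tissues served for comparison. Neuronal genes had 4 of 20 (Gad2, Stmn2, Camk2a and Nefl), of which Gad2 owed its place to the region with mitochondrial words. Housekeeping genes had 3 of 20 (Actb, Ywhaz and Tfrc), blood cell genes 1 of 20 (Itgax) and liver genes 1 of 19 (Apoa1). The interval of each of these 4 shares held 13.3%, as did those of 4 of the 5 muscle lists. Those of the sarcomere (14.2 to 44.4%), matrix (18.1 to 56.7%), cytoskeletal and AP-1 and Hippo lists (14.5 to 51.9% each) lay above it. These intervals count genes that share a region as separate, so they are no test. Nearness to a gene does not say which gene, if any, a region acts on.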

How the data were processed

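ChIP-seq peaks of Spin1 and H3K4me3 in primary myoblasts were analysed, and the RNA-seq and input libraries of the series were not used here. Per the study's methods, the authors aligned reads to mm10 with Bowtie2, called peaks on each library against input with MACS 1.4.2, and kept those with a false discovery rate up to 1%. Values as deposited are MACS scores (negative log10 of p, multiplied by 10); read depth and summits are not given in the sources used here. Regions were Spin1 peaks without 1 bp of overlap with an H3K4me3 peak on 21 chromosomes. Genes were RefSeq release 108.20200622 on GRCm38. Motifs, 6-mers and 31-base words were counted with Python 3.11.15, pysam 0.24.0 and pandas 2.3.3, and the counting was tested on simulated sequence. Shares carry 95% Wilson intervals and differences Newcombe intervals; no p-values were computed. Named genes were those nearest the 15 highest scores (10 for regions under 50% soft-masked), with 3 or more regions or in a cluster, with a region at TSS±1.0 kb, or in the gene lists with a region within 100 kb. Where more than 30 genes met a criterion, those with the highest scores were named. The regions, motifs and lists were chosen with earlier results of these data known. Other overlaps, score limits, windows, flanks, masks and link distances were tried. One gene that met the naming rule is not reported here.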

Additional observations from a re-analysis of the deposited data

How the results depend on the processing

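Of 155 alternatives to 32 values, 140 moved the value by less than its counting error or by less than 1.5 times and 15 moved it further. The sign changed in 4 alternatives, all to differences whose interval already held 0: Runx centre minus flanks (-0.034 in a 200-bp window), and, between regions of 200 or more and weaker ones, CAGCTG (0.125 in that window and 0.449 without repeated, mitochondrial or CENP-B windows) and Tead (-1.84 with the division at 300). A 200-bp window, which holds fewer motifs by its size, gave centre minus flank differences of 4.34 points for AP-1, 6.63 for AGGCCT, 2.49 for CAGCTG (-0.600 to 5.49), 1.45 for Tead (-0.270 to 3.16) and -4.18 for CACCTG. In that window the distal regions exceeded distal H3K4me3-positive peaks by 1.29 points for AP-1 (-0.564 to 3.30), 1.13 for Tead (-0.163 to 2.603), 4.81 for Runx and 2.34 for AGGCCT, so the AP-1 and Tead intervals then held 0. The AGGCCT values are descriptions, because the word was picked from these regions. With protein-coding genes only, 52.0% of regions were intergenic. Linking regions within 50 kb gave 46 clusters. A limit of 50 kb left 1438 genes near a region, and regions of 200 or more alone left 384. The interval of the general E-box difference stayed below 0 in only 2 of 9 alternatives. The values without repeated, mitochondrial or CENP-B windows, in mostly unmasked regions and per unmasked kb, as well as AGGCCT, AGGCCTAG and the 8-mers, were added after seeing the data. No paired analysis was possible because each antibody had 1 library. For the same reason no library could be left out, and an H3K4me3 signal too weak to be called cannot be told apart from none.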
